A study of Mus musculus with 15 samples.

Results

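The 10 genes described here report the output of the ERK pathway and feed back on it: Dusp4, Dusp5, Dusp6, Spry1, Spry2, Spry4, Spred1, Etv4, Etv5 and Egr1. They were taken by name from a count table of 23284 gene symbols, and all 10 were in the table. Growth factor receptors activate RAS, which acts through the RAF and MEK kinases on ERK, and ERK then switches on a small set of genes. Some of these encode transcription factors (Etv4, Etv5, Egr1), and others encode inhibitors that act back on the pathway: dual-specificity phosphatases, which remove phosphate from MAP kinases, and the Sprouty and Spred proteins, which act on the steps between receptor and RAF. Chemically induced mouse liver tumours are known for activating mutations in Hras and Braf, so these transcripts are a common read-out of the pathway in such tumours.

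RNA was sequenced from 15 mouse livers or liver tumours. There were 6 tumours from mice in which Albumin-Cre, active in the liver epithelium, deletes a floxed Hmgb1 gene, and 6 tumours from floxed mice with Hmgb1 intact. Mice of both tumour groups received diethylnitrosamine, a mutagen, as a dose of 25 mg/kg given 15 days after birth, and carbon tetrachloride, a liver toxin, at 0.5 µl/g each week from week 8 for 15 weeks. The remaining 3 samples were normal livers of C57BL/6 control mice with no treatment named. The labels give no age, sex or litter, no strain for the tumour-bearing mice, and do not say whether tumours shared a mouse, so each p-value reflects only how these samples spread. Treatment, being a tumour and any difference in genotype, strain or age cannot be told apart in comparisons with normal liver.

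Total counts were 18973246 to 26293378 in Hmgb1-deleted tumours, 20191452 to 30929442 in floxed tumours and 23193714 to 26997782 in normal livers. Levels are given as CPM, read counts scaled to a common library total, which do not account for gene length, so levels of different genes are not compared. Hmgb1 itself was at 9.71 to 17.2 CPM in Hmgb1-deleted tumours, 23.2 to 31.5 CPM in floxed tumours and 19.1 to 30.9 CPM in normal livers, and the first of these ranges overlapped neither of the others (exact two-sided permutation p = 0.00216 between the tumour groups, the smallest possible). Cells without Albumin-Cre keep Hmgb1, but the source of the Hmgb1 RNA that remained in Hmgb1-deleted tumours was not tested. Hepatocyte markers (8 genes, Alb and Ttr among them) were detected in every library, and all 8 cycling-cell markers were higher in each tumour group than in normal liver (edgeR, Benjamini-Hochberg adjusted p under 0.05).

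The 250 bases before the start site are shown for 4 of the genes, because Spry1 and Etv5 differed between the tumour groups and Dusp5 and Spry2 varied together from tumour to tumour. The sequences are from RefSeq (GRCm38.p6, mouse), read 5′ to 3′ on the gene's own strand. Capitals mark CArG boxes, the binding motif of serum response factor, through which ERK acts with ternary complex factors. Their places are chr19:53528895-53529144, plus strand for Dusp5, chr14:105896820-105897069, minus strand for Spry2, chr3:37639697-37639946, plus strand for Spry1 and chr16:22439571-22439820, minus strand for the first of the starts listed for Etv5.
Dusp5: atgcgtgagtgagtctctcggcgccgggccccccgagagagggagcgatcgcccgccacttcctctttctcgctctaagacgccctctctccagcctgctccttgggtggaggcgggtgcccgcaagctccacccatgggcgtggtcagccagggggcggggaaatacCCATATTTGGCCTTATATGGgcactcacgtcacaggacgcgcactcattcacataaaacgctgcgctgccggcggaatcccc
Spry2: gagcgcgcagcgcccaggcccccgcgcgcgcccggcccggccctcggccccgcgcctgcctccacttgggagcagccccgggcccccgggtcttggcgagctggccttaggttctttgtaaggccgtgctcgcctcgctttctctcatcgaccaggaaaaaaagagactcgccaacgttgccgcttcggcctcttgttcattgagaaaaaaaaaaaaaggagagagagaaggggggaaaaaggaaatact
Spry1: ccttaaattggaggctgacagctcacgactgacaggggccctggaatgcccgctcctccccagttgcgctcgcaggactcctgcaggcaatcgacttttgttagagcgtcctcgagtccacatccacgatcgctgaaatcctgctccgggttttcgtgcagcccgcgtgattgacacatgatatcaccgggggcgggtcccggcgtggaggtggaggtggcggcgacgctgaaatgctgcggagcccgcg
Etv5: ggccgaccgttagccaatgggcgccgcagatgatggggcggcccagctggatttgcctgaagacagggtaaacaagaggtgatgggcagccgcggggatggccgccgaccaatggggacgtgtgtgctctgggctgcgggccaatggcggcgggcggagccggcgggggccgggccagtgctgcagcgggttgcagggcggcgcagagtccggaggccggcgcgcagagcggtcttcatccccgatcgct

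Start sites of 6 of the 10 genes were searched (7 starts in all: Dusp5, Dusp6, Spry1, Spry2, Spred1 and Etv5 with 2). Dusp4, Spry4, Etv4 and Egr1 were not searched, so nothing is said here of their promoters. The Dusp5 window held 2 CArG boxes, next to each other, and no other of these 7 windows held one. A CArG box was found in 1.47% of 32851 windows of the same length over all genes. Searches on both strands for an ETS motif (CCGGAAG, in 6.91% of all windows), an AP-1 motif (TGANTCA, 6.75%) and a cyclic AMP response element (TGACGTCA, 1.55%) found none in the 7 windows. These matches describe the letters only.

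Do the transcripts of these 10 genes differ when tumours form without Hmgb1 in the liver epithelium? Only RNA was measured, and the activity of ERK itself was not. Hmgb1-deleted tumours were set against floxed tumours to see. All 10 genes had a lower fitted level in Hmgb1-deleted tumours, and 4 of them fell: Etv4, Egr1, Etv5 and Spry1 (quasi-likelihood test of edgeR, p adjusted by Benjamini-Hochberg over 13433 genes, threshold 0.05). Over all tested genes 3.33% were called lower and 4.45% higher. The median log2 fold change of the 10 genes was -1.02, with a range of -2.63 to -0.65, against a median of 0.02 over all tested genes, of which 47.5% had a negative value. The 10 genes were chosen with earlier results of these data known. Comparisons with all genes, here and below, are therefore a description. Of the other 6 genes, 5 had an unadjusted p under 0.05 in the same edgeR fit, and Dusp5 did not. In whole tissue, fewer cells of a type and less RNA per cell cannot be told apart. All 10 values stayed negative under each scaling, including library totals without a factor, which moved the median of all genes to 0.20 and the share of called genes that were higher to 79.3%, against 57.2% with TMM scaling.

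**Figure D1:**
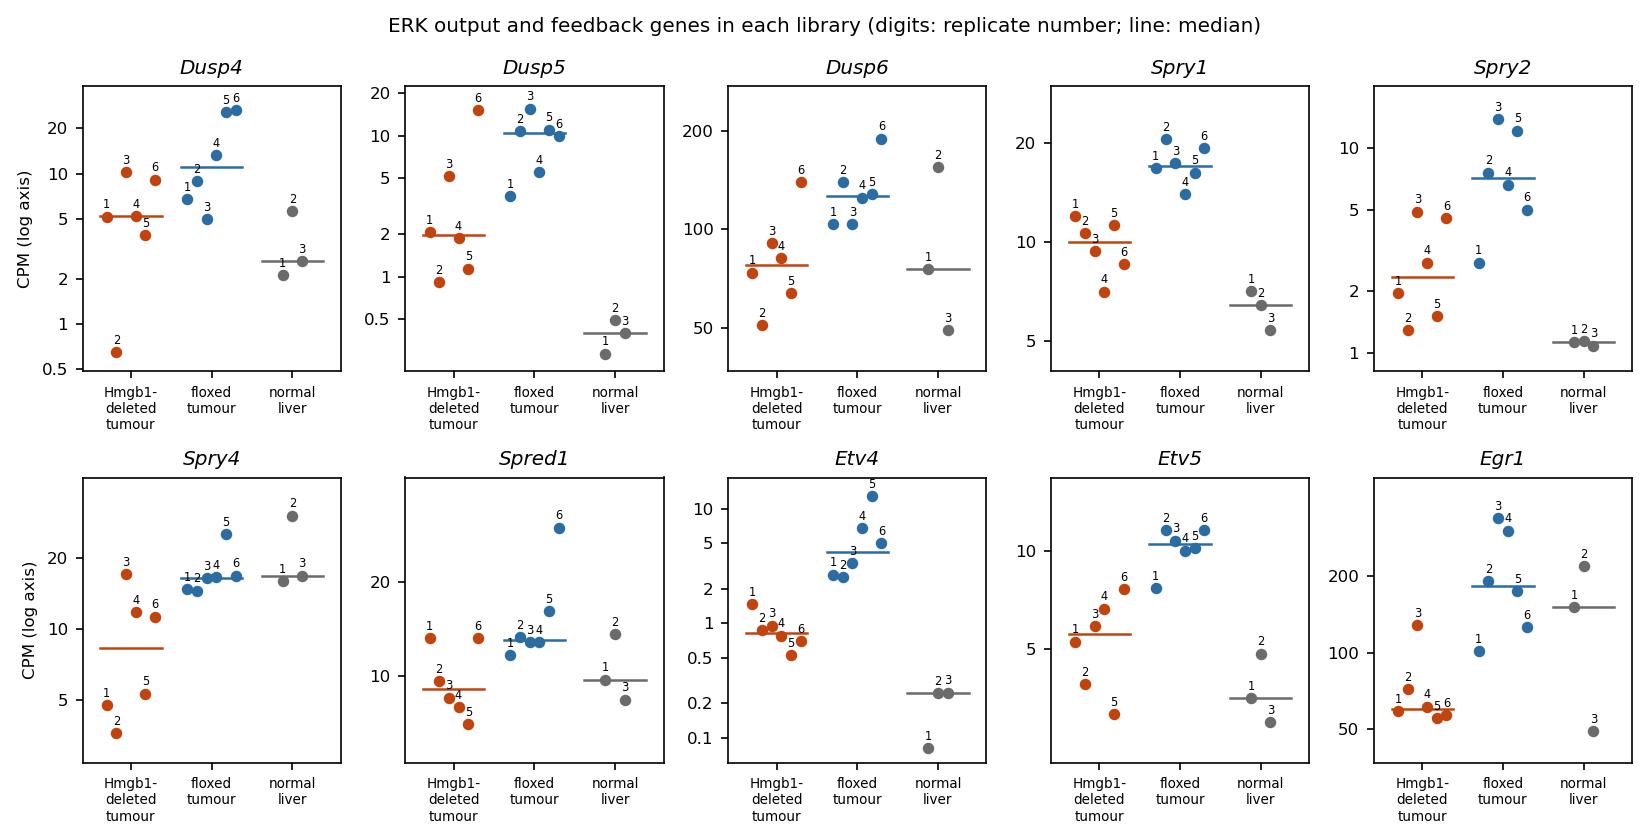
CPM (log axis) of each gene in 6 Hmgb1-deleted tumours, 6 floxed tumours and 3 normal livers. Points are libraries with their replicate number and lines are group medians. The tumour groups do not overlap for Etv4, Etv5 and Spry1, and Dusp5 in Hmgb1-deleted tumour 6 (15.2 CPM) lies far above the other 5.

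Among the transcription factors, Etv4, an ETS factor of the PEA3 group, differed most. It was at 0.530 to 1.48 CPM (median 0.829) in Hmgb1-deleted tumours and at 2.52 to 13.0 CPM (median 4.17) in floxed tumours. The groups did not overlap. The log2 fold change was -2.63 ± 0.43 (SE, edgeR adjusted p = 0.0057), and it stayed between -2.83 and -2.18 when any 1 of the 12 tumours was left out. Floxed tumour 5 had the highest Etv4 level of all libraries.

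Etv5, the closest relative of Etv4 among these genes, was at 3.14 to 7.66 CPM (median 5.57) in Hmgb1-deleted tumours and at 7.69 to 11.6 CPM (median 10.5) in floxed tumours. The ranges just miss each other, since the highest Hmgb1-deleted tumour, number 6, and the lowest floxed tumour, number 1, had nearly the same level. The log2 fold change was -0.92 ± 0.21 (SE, edgeR adjusted p = 0.0219). Egr1, a zinc-finger factor of the immediate early response, was at 55.1 to 128 CPM (median 59.9) in Hmgb1-deleted tumours and at 101 to 339 CPM (median 183) in floxed tumours. Hmgb1-deleted tumour 3 alone reached into the floxed range, and the other 5 were at 71.6 CPM or below. Its log2 fold change was -1.51 ± 0.32 (SE, edgeR adjusted p = 0.0153).

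Of the Sprouty and Spred inhibitors, Spry1 fell and the others did not pass the test. Spry1 was at 7.08 to 11.97 CPM (median 10.02) in Hmgb1-deleted tumours and at 14.0 to 20.6 CPM (median 17.1) in floxed tumours, with no overlap. Its log2 fold change was -0.81 ± 0.14 (SE, edgeR adjusted p = 0.00713). On library totals without a factor it was -0.59 and missed the threshold (edgeR adjusted p = 0.103). Spry1, Etv4 and Etv5 make 3 of 10 genes whose tumour groups did not overlap, with the Hmgb1-deleted group lower, a pattern seen in 2.15% of all tested genes.

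Spry2, which like Spry1 restrains receptor tyrosine kinase signalling, was at 1.30 to 4.88 CPM (median 2.36) in Hmgb1-deleted tumours and at 2.76 to 13.8 CPM (median 7.09) in floxed tumours. Its log2 fold change of -1.49 ± 0.43 (SE) narrowly missed the threshold (edgeR adjusted p = 0.0544), and it passed with DESeq2 (adjusted p = 0.00749) and with voom (adjusted p = 0.0422). Over 11 other runs, DESeq2 and voom among them, Spry2 passed in 6 (highest edgeR adjusted p = 0.129). Spry4 was at 3.62 to 17.1 CPM (median 8.31) in Hmgb1-deleted tumours and at 14.6 to 25.3 CPM (median 16.5) in floxed tumours. Hmgb1-deleted tumours 1, 2 and 5 were at 4.78, 3.62 and 5.34 CPM, and tumours 3, 4 and 6 at 17.1, 11.8 and 11.3 CPM. The log2 fold change of Spry4 was -0.94 ± 0.34 (SE, edgeR adjusted p = 0.115). Spred1, which recruits the RAS inhibitor neurofibromin to the membrane, was at 7.003 to 13.2 CPM (median 9.05) in Hmgb1-deleted tumours and 11.7 to 29.9 CPM (median 13.1) in floxed tumours, with a log2 fold change of -0.69 ± 0.25 (SE, edgeR adjusted p = 0.113).

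The 3 phosphatases did not pass the test. Dusp6, a cytoplasmic phosphatase selective for ERK, was at 50.9 to 139 CPM (median 77.6) in Hmgb1-deleted tumours and at 104 to 189 CPM (median 127) in floxed tumours. Only Hmgb1-deleted tumour 6 lay within the floxed range. Its log2 fold change was -0.65 ± 0.23 (SE, edgeR adjusted p = 0.108), and without that tumour it was -0.85 and passed (adjusted p = 0.0264). Dusp5, a nuclear phosphatase selective for ERK, was at 0.916 to 15.2 CPM (median 1.97) in Hmgb1-deleted tumours and at 3.73 to 15.5 CPM (median 10.4) in floxed tumours. The highest Hmgb1-deleted value was again tumour 6, and the next was 5.15 CPM. Dusp5 had a log2 fold change of -1.09 ± 0.64 (SE, edgeR adjusted p = 0.32), and of -2.07 without tumour 6 (adjusted p = 0.0299). Dusp4, a nuclear phosphatase of ERK and other MAP kinases, was at 0.649 to 10.2 CPM (median 5.20) in Hmgb1-deleted tumours and at 4.96 to 26.3 CPM (median 11.1) in floxed tumours, with a log2 fold change of -1.31 ± 0.56 (SE, edgeR adjusted p = 0.169).

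Hmgb1-deleted tumours 3, 4 and 6 were known from earlier results of these data to lie nearest to normal liver. In a fit that kept tumours 1, 2 and 5 of that group, 8 of the 10 genes were lower, the 4 named first and Dusp5, Dusp6, Spry2 and Spry4, against 3.33% of 13925 tested genes. The dropped tumours were chosen on these data, so the higher count is a description. Their levels of Dusp6, Spry2 and Spry4 were the highest of their group, so leaving them out lowers its mean for these genes. When instead tumours 2 and 5 were dropped, the 4 genes called over all tumours were called again. The sum of 8 endothelial markers, cells in which several of these genes are also active, was 172 to 320 CPM in Hmgb1-deleted tumours and 224 to 522 CPM in floxed tumours. The sum of 8 cholangiocyte markers was 215 to 6332 CPM (median 708) in Hmgb1-deleted tumours and 74.2 to 1781 CPM (median 1093) in floxed tumours. Its highest value, in Hmgb1-deleted tumour 2, was mostly Spp1 (6186 CPM). Of the 6 cholangiocyte markers tested, 3 had a negative log2 fold change. Hepatocyte markers summed to 71608.5 to 173140 CPM (median 127547) in Hmgb1-deleted tumours and 107746 to 283869 CPM (median 225048.5) in floxed tumours. The lower median was that of Hmgb1-deleted tumours, as for each of the 10 genes. Alb made up most of this sum, and 4 of the 8 hepatocyte markers had a negative log2 fold change. All 8 endothelial markers and 7 of 8 stellate cell and fibroblast markers had a negative log2 fold change. The stellate cell and fibroblast sum was 232 to 592 CPM (median 364) in Hmgb1-deleted tumours and 200 to 1710 CPM (median 282) in floxed tumours. Its median was thus higher in Hmgb1-deleted tumours. The highest floxed value was that of tumour 5, and the next was 356 CPM in tumour 4. Cycling-cell markers summed to 28.4 to 158 CPM in Hmgb1-deleted tumours and 22.9 to 116 CPM in floxed tumours. Of 58 tested markers of 8 cell types, edgeR called 0 between the tumour groups (6 had an unadjusted p under 0.05). DESeq2 called 5, with the hepatocyte markers Alb, Apoa1 and Serpina1a and the neutrophil marker Retnlg lower and the hepatocyte marker Cyp2e1 higher. Voom called Apoa1 lower and Cyp2e1 higher. The part of cell makeup in the ERK gene differences was not tested.

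**Figure D2:**
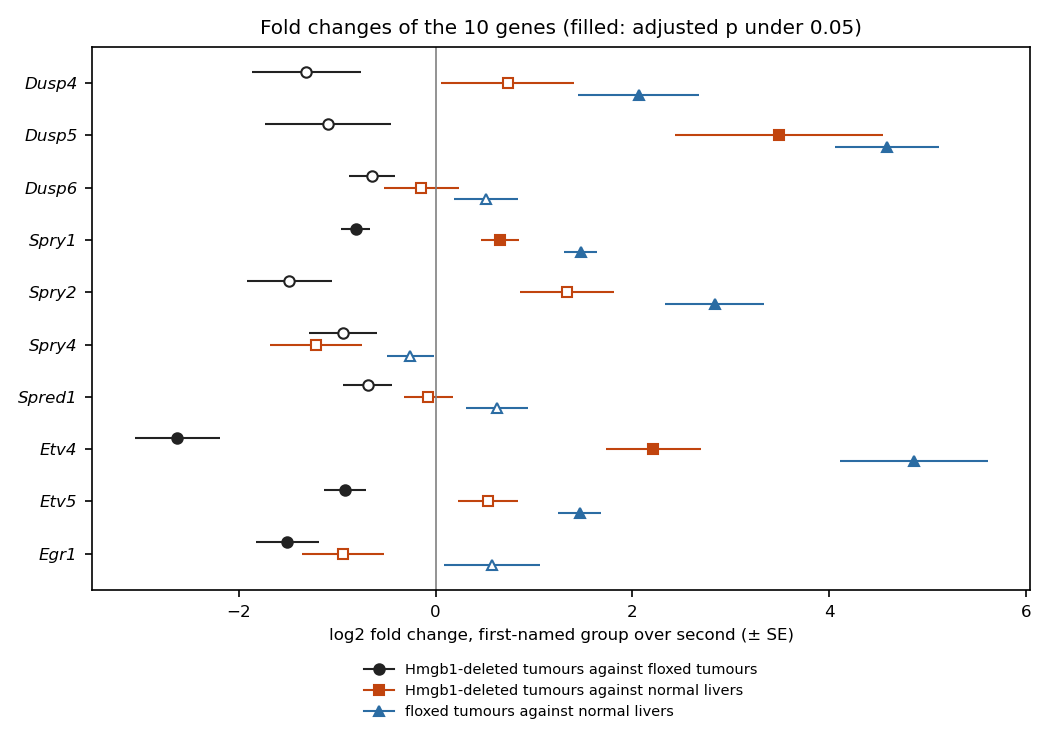
Log2 fold change ± SE of each gene from edgeR in 3 comparisons, Hmgb1-deleted against floxed tumours, Hmgb1-deleted tumours against normal livers and floxed tumours against normal livers. Filled symbols passed an adjusted p of 0.05. The 10 values of the first comparison lie left of 0, and Etv4 has the lowest at -2.63.

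Floxed tumours were set against normal livers to show the RNA levels of these genes in tumours with Hmgb1 intact. Of the 10 genes 6 rose: Etv4, Dusp5, Spry2, Dusp4, Spry1 and Etv5 (edgeR adjusted p under 0.05 over 13784 genes). Over all tested genes 24.9% were called higher and 23.8% lower. The other 4, Dusp6, Spry4, Spred1 and Egr1, did not pass the test. The median log2 fold change of the 10 genes was 1.47, against 0.06 over all tested genes. The groups did not overlap, with floxed tumours higher, for 5 of the 10 genes, against 22.4% of all tested genes. Upper-quartile scaling moved the median of all genes to 0.23 and the share of called genes that were higher to 63.5%, against 51.2% with TMM scaling.

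Etv4, Dusp5 and Spry2 had the largest fitted rises of the 10 genes. Etv4 was at 2.52 to 13.0 CPM in floxed tumours and at 0.081, 0.246 and 0.248 CPM in the 3 normal livers, 13 reads in all, and its log2 fold change in floxed tumours was 4.86 ± 0.75 (SE, edgeR adjusted p = 0.000509). Dusp5 was at 3.73 to 15.5 CPM in floxed tumours and at 0.283, 0.492 and 0.397 CPM in normal livers, 27 reads in all, and rose by 4.59 ± 0.53 on the log2 scale (SE, edgeR adjusted p = 8.53e-05). The lowest floxed tumour was far above the highest normal liver for each. Spry2 was at 2.76 to 13.8 CPM in floxed tumours and at 1.13, 1.15 and 1.09 CPM in normal livers, and rose by 2.83 ± 0.51 on the log2 scale (SE, edgeR adjusted p = 0.00124).

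Spry1 was at 14.0 to 20.6 CPM in floxed tumours and at 7.08, 6.43 and 5.40 CPM in normal livers, and rose by 1.47 ± 0.17 on the log2 scale in floxed tumours (SE, edgeR adjusted p = 7.96e-05). Etv5 was at 7.69 to 11.6 CPM in floxed tumours and at 3.52, 4.84 and 2.97 CPM in normal livers, and its rise was 1.46 ± 0.22 on the log2 scale (SE, edgeR adjusted p = 0.000397). Neither gene had a floxed tumour within the range of normal livers. Dusp4 was at 4.96 to 26.3 CPM in floxed tumours and at 2.105, 5.66 and 2.63 CPM in normal livers, and floxed tumour 3 fell inside the normal range. It rose by 2.06 ± 0.61 on the log2 scale (SE, edgeR adjusted p = 0.0183), and missed the threshold without normal liver 1 or 3 (highest adjusted p = 0.0802).

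Among the 4 that did not pass, Spry4 differed from its family. It was at 14.6 to 25.3 CPM in floxed tumours and at 16.0, 30.3 and 16.85 CPM in normal livers, so the groups overlapped (log2 fold change -0.26 ± 0.24, SE, edgeR adjusted p = 0.398). Dusp6 was at 104 to 189 CPM in floxed tumours and 75.6, 155 and 49.1 CPM in normal livers (0.51 ± 0.33, adjusted p = 0.217), and Egr1 at 101 to 339 CPM in floxed tumours and 151, 219.7 and 49.0 CPM (0.57 ± 0.49, adjusted p = 0.348). Normal liver 2 was the highest of the 3 and normal liver 3 the lowest for each. Without normal liver 2, Dusp6 passed as higher in floxed tumours, at 1.08 (edgeR adjusted p = 0.0159). Spred1 was at 11.7 to 29.9 CPM in floxed tumours and 9.72, 13.6 and 8.38 CPM in normal livers (0.62 ± 0.31, adjusted p = 0.122).

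Hmgb1-deleted tumours were set against the same 3 normal livers, so this comparison shares them with the one before. Here 3 of the 10 genes rose, Etv4, Dusp5 and Spry1, and none was called lower by edgeR. Of all 13784 tested genes 18.1% were called higher and 16.6% lower. Etv4 had a log2 fold change of 2.21 ± 0.48 (SE, edgeR adjusted p = 0.00891), Dusp5 of 3.49 ± 1.06 (adjusted p = 0.0306) and Spry1 of 0.66 ± 0.20 (adjusted p = 0.0287). Etv4 kept its call when any 1 library was left out. Dusp5 and Spry1 missed the threshold without any 1 of the normal livers (highest adjusted p = 0.112), and Dusp5 was at 2.52 without Hmgb1-deleted tumour 6.

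Without normal liver 1 or 2 only Etv4 was called, and without normal liver 3 Etv4 and, as lower, Egr1. Without Hmgb1-deleted tumour 3 the count was 5, with Spry4 and Egr1 lower (edgeR adjusted p = 0.0259 and 0.0384). Over all tumours these 2 genes had log2 fold changes of -1.21 ± 0.46 and -0.94 ± 0.41 (SE) and did not pass (edgeR adjusted p = 0.0669 and 0.101). Voom called each of them lower, and DESeq2 called Spry4. Spry2 narrowly missed the threshold at 1.34 ± 0.48 (SE, edgeR adjusted p = 0.0529), though its groups did not overlap. The same held for Dusp5 and Etv4, 3 of 10 genes, and for 18.2% of all tested genes with Hmgb1-deleted tumours higher. Dusp4 (0.73), Etv5 (0.53), Spred1 (-0.07) and Dusp6 (-0.14) gave values with edgeR adjusted p from 0.194 to 0.829. The direction of Dusp6 and Spred1 turned on library totals without a factor and with upper-quartile factors, a scaling that moved the median of all genes to 0.20 and the share of called genes that were higher to 68.2%, against 52.1% with TMM scaling.

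**Figure D3:**
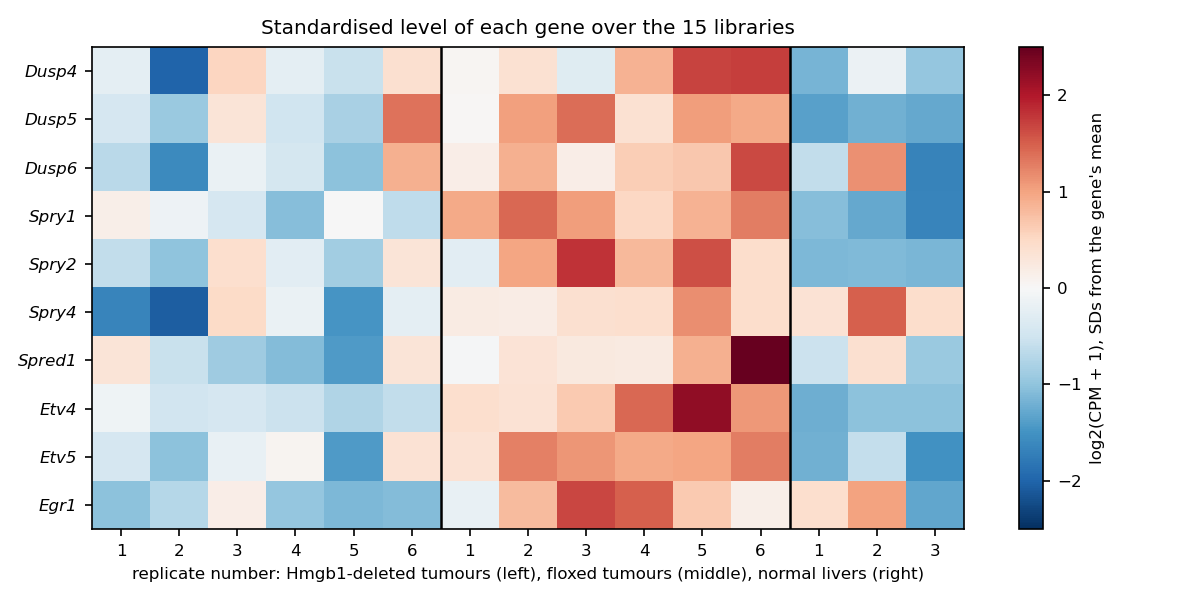
Level of each gene in each library as log2(CPM + 1), in SDs from that gene's mean over the 15 libraries. Columns run from 6 Hmgb1-deleted tumours through 6 floxed tumours to 3 normal livers. Floxed tumours 5 and 6 have the highest mean over the 10 genes (1.18 and 1.17), and Hmgb1-deleted tumour 2 and normal liver 3 the lowest (-1.05 and -1.10).

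The 10 genes varied together to different degrees from tumour to tumour. With 12 tumours, a pair of genes that did not pass may still be correlated. With each tumour group's mean taken off, the 45 pairs of genes had a median Pearson correlation of 0.30 over 12 tumours, from -0.61 to 0.80, and 33 pairs were positive. After Benjamini-Hochberg adjustment over the 45 pairs, 1 pair passed, Dusp5 with Spry2, at r = 0.80 (permutation p = 6e-04, adjusted p = 0.027) and Spearman's rho = 0.89 (permutation p = 0.00038, adjusted p = 0.0171). The permutations were made within tumour groups. Without the 2 tumours farthest from the median of Dusp5, r was 0.84. Dusp4 and Spry4 had r = 0.71 (permutation p = 0.0051, adjusted p = 0.0672) and rho = 0.76 (adjusted p = 0.0214), and r = 0.64 without the 2 tumours farthest from the median of Dusp4.

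Spry1 had the pair of lowest correlation, with Spry4 (r = -0.61, permutation p = 0.0738, adjusted p = 0.302; rho = -0.66, permutation p = 0.0409, adjusted p = 0.222), which did not pass, and r was -0.49 without the 2 tumours farthest from the median of Spry1. Among Hmgb1-deleted tumours, Spry1 was at 10.6 to 11.97 CPM in tumours 1, 2 and 5, where Spry4 was lowest, and at 9.39, 7.08 and 8.57 CPM in tumours 3, 4 and 6, where Spry4 was highest.

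Outside the pathway lists, the gene whose level over all 15 libraries was most like the mean of the 10 genes was Actn1, an actin cross-linker (r = 0.96, of 11332 genes compared). It was at 34.6 to 68.5 CPM in Hmgb1-deleted tumours, 76.0 to 104 CPM in floxed tumours and 38.3 to 44.0 CPM in normal livers. Igfbp1, a secreted binding protein of insulin-like growth factors (0.93), Acer2, an alkaline ceramidase (0.92), 4930471M23Rik (0.92) and Rasgef1b, an exchange factor of RAS-like GTPases (0.92), came next. Over the 12 tumours with group means off, 4 of the 5 most alike were Igf2r (0.94), Dlg1 (0.94), Actn1 (0.92) and Shroom2 (0.91). These values are the highest of many and describe likeness only.

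Other genes of the pathway were taken from lists. In the list of 8 other dual-specificity phosphatases, Dusp7 fell and Dusp1 rose in Hmgb1-deleted tumours, and 6 did not pass (median log2 fold change -0.11). Between the same groups 3.33% of all tested genes fell and 4.45% rose. Dusp7, a cytoplasmic relative of Dusp6, was at 9.03 CPM ± 1.48 in Hmgb1-deleted tumours and 14.5 CPM ± 3.04 in floxed tumours (SD, n = 6 each), with a log2 fold change of -0.67 ± 0.16 (SE, edgeR adjusted p = 0.0243). It missed the threshold without tumour 3 of either group (highest adjusted p = 0.0568), without Hmgb1-deleted tumours 3, 4 and 6 (adjusted p = 0.0931) and on library totals without a factor (-0.49, adjusted p = 0.224). Dusp1, an early stress-induced phosphatase, went the other way, at 83.8 CPM ± 47.0 in Hmgb1-deleted tumours and 29.6 CPM ± 8.97 in floxed tumours (SD, n = 6 each; log2 fold change 1.52 ± 0.39, SE, edgeR adjusted p = 0.0327). Hmgb1-deleted tumours 1 and 2, at 26.6 and 30.1 CPM, lay within the floxed range and the other 4 above it. The call of Dusp1 ended when any 1 of 8 tumours was dropped, Hmgb1-deleted 3, 4 and 6 and floxed 1, 2, 3, 4 and 6 (adjusted p up to 0.0859), and without Hmgb1-deleted tumours 3, 4 and 6 together its value was 0.66 (adjusted p = 0.323). Against normal liver, where it was at 131 CPM ± 71.8 (SD, n = 3), Dusp1 was lower in floxed tumours (-2.13 ± 0.34, edgeR adjusted p = 0.000652). The other called phosphatases of the list rose in tumours. In Hmgb1-deleted tumours against normal livers 4 of 8 rose, among them Dusp7 (1.15 ± 0.19) and Dusp2 (2.30 ± 0.49), against 18.1% of all tested genes. In floxed tumours 5 of 8 rose, among them Dusp7 (1.83 ± 0.22), against 24.9% of all tested genes. Dusp9, which like Dusp6 and Dusp7 prefers ERK, had 1 read over the 3 normal livers and was called higher in each tumour group.

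Of 8 tested other feedback inhibitors edgeR called 0 between the tumour groups (1 had an unadjusted p under 0.05, and DESeq2 and voom each called 1, Spred2). Spred2, the sister gene of Spred1, was at 5.79 CPM ± 2.17 in Hmgb1-deleted tumours and 10.8 CPM ± 3.32 in floxed tumours (SD, n = 6 each; edgeR adjusted p = 0.0603). It fell in Hmgb1-deleted tumours against normal liver, where it was at 11.4 CPM ± 1.49 (SD, n = 3; log2 fold change -0.96 ± 0.29, SE, edgeR adjusted p = 0.0299). That call ended without Hmgb1-deleted tumour 2 or any 1 normal liver (highest adjusted p = 0.117). Of 13 other transcriptional outputs edgeR called 0 (3 had an unadjusted p under 0.05, DESeq2 called 1, Fos, and voom 0). Fos, a partner in the AP-1 factor, was at 9.38 CPM ± 3.39 in Hmgb1-deleted tumours and 21.4 CPM ± 12.6 in floxed tumours (SD, n = 6 each; edgeR adjusted p = 0.0771). Against normal livers, 4 of 14 outputs rose and 2 fell in Hmgb1-deleted tumours, and 5 rose and 2 fell in floxed tumours. Of all tested genes 18.1% rose and 16.6% fell in Hmgb1-deleted tumours, and 24.9% rose and 23.8% fell in floxed tumours, so the share of outputs that fell was no higher than that of all genes. Ccnd1, which encodes cyclin D1, rose in Hmgb1-deleted tumours (1.87 ± 0.36) and in floxed tumours (2.03 ± 0.31). Egr2, a relative of Egr1, rose in Hmgb1-deleted tumours (3.32 ± 0.70) and in floxed tumours (3.95 ± 0.71).

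**Figure D4:**
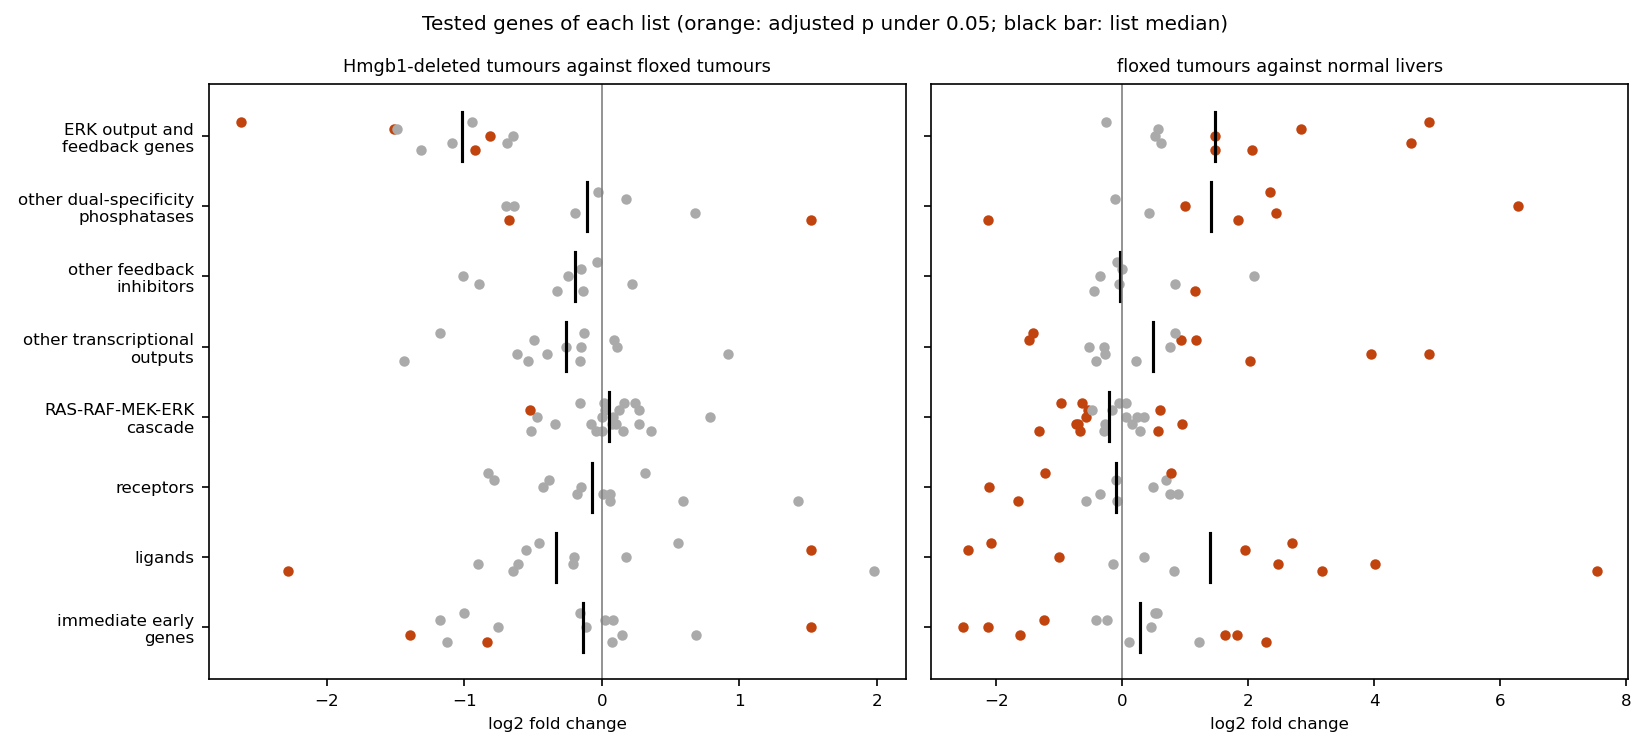
Log2 fold change of each tested gene, by pathway list, in Hmgb1-deleted against floxed tumours (left) and floxed tumours against normal livers (right). Orange points passed an adjusted p of 0.05 and black bars are list medians. On the left the 10 ERK output and feedback genes have a median of -1.02 and the 22 cascade genes of 0.05.

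The signalling cascade itself was measured in 22 genes, from the adaptors and RAS to ERK and its kinases. Between the tumour groups 1 fell, Shc1, an adaptor between receptors and RAS, with a median over the list of 0.05 on the log2 scale. Of all tested genes 3.33% fell, so the share of cascade genes that fell was near that of all genes. Shc1 was at 58.9 CPM ± 6.20 in Hmgb1-deleted tumours and 85.3 CPM ± 13.4 in floxed tumours (SD, n = 6 each; log2 fold change -0.53 ± 0.12, SE, edgeR adjusted p = 0.0237), and missed the threshold without floxed tumour 2 (adjusted p = 0.0515), without Hmgb1-deleted tumours 3, 4 and 6 (adjusted p = 0.0507) and on library totals without a factor (-0.32, adjusted p = 0.153). Sos1, a RAS exchange factor, had a value of 0.36 ± 0.10 and narrowly missed the threshold (SE, edgeR adjusted p = 0.0528). DESeq2 and voom each called Shc1 lower and Sos1 higher, and DESeq2 also called Rras2 higher. In floxed tumours against normal livers 3 of the 22 rose and 8 fell (24.9% and 23.8% of all tested genes), Sos1 (-1.33 ± 0.11), Shoc2 (-0.98 ± 0.15) and Sos2 (-0.70 ± 0.13) with the smallest p. In Hmgb1-deleted tumours against normal livers 1 rose and 7 fell (18.1% and 16.6% of all tested genes), Sos1 (-0.98 ± 0.11, edgeR adjusted p = 0.000921) and Shoc2, a scaffold of RAF activation (-0.83 ± 0.17, adjusted p = 0.00667), with the smallest p.

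Of 12 receptor genes edgeR called 0 between the tumour groups (3 had an unadjusted p under 0.05, DESeq2 called 2, Fgfr2 and Fgfr3, and voom 1, Fgfr2). Fgfr2 was at 47.8 CPM ± 18.4 in Hmgb1-deleted tumours and 85.5 CPM ± 19.8 in floxed tumours (SD, n = 6 each; edgeR adjusted p = 0.0732). In floxed tumours against normal livers 1 of 12 receptors rose and 3 fell, where 24.9% of all tested genes rose and 23.8% fell, so the share that fell was near that of all genes. Those that fell were Met, the receptor of hepatocyte growth factor (-1.23 ± 0.16), Erbb3 (-2.12 ± 0.34) and Egfr (-1.66 ± 0.27). In Hmgb1-deleted tumours Erbb3 (-2.29 ± 0.32) and Met (-0.93 ± 0.15) fell against normal livers, 2 of 12 where 16.6% of all tested genes fell, and Egfr did not pass (-1.08 ± 0.41, edgeR adjusted p = 0.0658).

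Of 12 tested ligands, 6 rose and 3 fell in floxed tumours against normal livers, and 4 rose and 2 fell in Hmgb1-deleted tumours. Of all tested genes 24.9% rose and 23.8% fell in floxed tumours, and 18.1% rose and 16.6% fell in Hmgb1-deleted tumours, so the shares of ligands that fell were near those of all genes. Those that rose included Areg, Hbegf and Btc, ligands of the EGF receptor, in each tumour group. Hbegf, a heparin-binding ligand, was at 12.7 CPM ± 6.53 in floxed tumours (SD, n = 6) and 0.788 CPM ± 0.135 in normal livers (SD, n = 3), a log2 fold change of 4.02 ± 0.46 (SE, edgeR adjusted p = 8.17e-05). In Hmgb1-deleted tumours, at 6.76 CPM ± 3.94 (SD, n = 6), it rose by 3.11 ± 0.58 against normal liver (SE, edgeR adjusted p = 0.00508). Areg, which encodes amphiregulin, had 187 reads over the Hmgb1-deleted tumours, 868 over the floxed tumours and 2 over the 3 normal livers. Between the tumour groups 1 of the 12 ligands fell, Areg, and 1 rose, Igf1, where 3.33% of all tested genes fell and 4.45% rose. Areg was at 0.520 to 2.89 CPM in Hmgb1-deleted tumours and 1.34 to 16.0 CPM in floxed tumours (log2 fold change -2.28 ± 0.61, SE, edgeR adjusted p = 0.0391). It missed the threshold when any 1 of 8 tumours was dropped, Hmgb1-deleted 2 to 6 and floxed 1, 4 and 5 (adjusted p up to 0.0817), and with voom (adjusted p = 0.133). Igf1, the growth factor secreted by hepatocytes, rose in Hmgb1-deleted tumours, to 287 to 603 CPM, against 68.5 to 184 CPM in floxed tumours (1.52 ± 0.26, SE, edgeR adjusted p = 0.00665), and normal livers were at 666 to 787 CPM.

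Egr1 also belongs to the immediate early genes, which respond within minutes to growth factors and to the handling of tissue. Of 14 other such genes, Btg2 and Ier2 fell between the tumour groups and Dusp1 rose (median log2 fold change -0.14), where 3.33% of all tested genes fell and 4.45% rose. Btg2, an antiproliferative gene, was at 58.6 CPM ± 18.98 in Hmgb1-deleted tumours and 155 CPM ± 30.8 in floxed tumours, and Ier2 at 31.3 CPM ± 3.13 in Hmgb1-deleted tumours and 56.2 CPM ± 18.4 in floxed tumours (SD, n = 6 each; edgeR adjusted p = 0.00544 and 0.0162). The summed level of the 14 genes was 541 to 701 CPM in Hmgb1-deleted tumours, 543 to 963 CPM in floxed tumours and 523 to 1360.4 CPM in normal livers, so the groups overlapped. Normal liver 3 had the lowest Egr1 and Fos of the 3 normal livers, with Fos at 1.88 CPM there and at 28.5 to 55.9 CPM in the other 2. The part of tissue handling in the Egr1 difference was not tested.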

How the data were processed

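RNA was selected by poly-A tail and sequenced as TruSeq libraries, per the labels' protocols. The values deposited by the authors are raw read counts per gene symbol. The submitters' processing notes list bcl2fastq 1.8.4, Bowtie2 2.2.4, TopHat2 2.1.0, HTSeq 0.6.1 and build mm9. Annotation, strand setting and handling of multiply matching reads were not given in the sources used here. GENCODE M21 has opposite-strand transcripts that overlap Dusp5, Spry1 and Spry4, whose reads cannot be told apart without strand.

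Each comparison was fitted on the libraries of its own groups in edgeR 4.0.16 (R 4.3.3): filterByExpr, TMM factors, robust quasi-likelihood F test, group as the sole term, Benjamini-Hochberg adjustment over every tested gene. SEs were taken from the F statistic. Printed CPM levels use TMM factors from the 15 libraries together. The genes and lists (168 entries, 167 found, 2 by an older symbol) were chosen with earlier results of these data known. Named genes were the 10, Hmgb1, up to 3 per list and comparison with the smallest p, and the 5 most alike; not every one of these is printed, and genes outside the rule (Egfr, Fgfr3, and overlap or tool examples) were picked with values in view. Other runs used RLE, upper-quartile or no factors, other filters, DESeq2 1.42.0, voom (limma 3.58.1), a joint fit, a replicate block, and dropped libraries. No 2 libraries of the same group agreed within counting noise.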

Additional observations from a re-analysis of the deposited data

Results flagged for a closer look

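In groups of 6 tumours, a library was singled out where its gap to the nearest other, divided by the group's range, passed Dixon's 95% critical value of 0.625. For independent, normally distributed values chance singles out about 1 in 20 groups, and 4 of 20 were singled out here. The groups share the same tumours and CPM was not put on a log scale, so that rate need not hold. Dusp5 was at 15.2 CPM in Hmgb1-deleted tumour 6, with the next at 5.15 CPM. Egr1 was at 128 CPM in Hmgb1-deleted tumour 3, with the next at 71.6 CPM. Spry4 was at 25.3 CPM in floxed tumour 5, with the next at 16.8 CPM, and Spred1 at 29.9 CPM in floxed tumour 6, with the next at 16.1 CPM. The causes were not tested.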

How the results depend on the processing

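Between Hmgb1-deleted and floxed tumours the 10 genes gave 4 to 6 calls when 1 library was dropped, and 8 without Hmgb1-deleted tumours 3, 4 and 6. All tested genes gave 589 to 1054 calls with 1 library dropped (589 without Hmgb1-deleted tumour 4), 2063 with DESeq2 and 1629 in a joint fit, against 1045. For Hmgb1-deleted tumours against normal livers the 3 calls among the 10 genes became 5 with DESeq2 and 6 with voom, and 1 to 5 with 1 library dropped; all genes gave 2113 to 4912. For floxed tumours against normal livers these counts were 5 to 7 and 4860 to 6966. The cause was not tested. The difference in Hmgb1 (log2 of CPM + 1) ranged from -0.93 to -0.77 between the tumour groups, from -0.80 to -0.46 for Hmgb1-deleted tumours against normal livers, and from 0.080 to 0.42 for floxed tumours against normal livers; on library totals without a factor the last 2 were -0.38 (exact permutation p = 0.167) and 0.31 (exact permutation p = 0.0476).

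The direction turned only in values that were not called. In Hmgb1-deleted tumours against normal livers, Dusp6 was at 0.000574558 with upper-quartile factors, 0.063 on library totals, 0.061 without tumours 2 and 5, and -0.46 to 0.43 with 1 library dropped. Spred1 was at 0.078 with upper-quartile factors, 0.19 on library totals, 0.023 with the replicate block, 0.034 without tumours 2 and 5, and -0.22 to 0.15 with 1 library dropped, and Dusp4 was at -0.073 without tumours 3, 4 and 6. Spry4 in floxed tumours against normal livers was at -0.43 to 0.10 with 1 library dropped.

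Same-numbered tumours of the 2 groups correlated at -0.30 to 0.26, over 0.1 in 5 of 6 pairs and not in all, so the numbers were not taken to pair them. With a replicate block the 10 genes gave 4, 3 and 6 calls in the comparisons as ordered above, and all genes 860, 3055 and 6579. Of the other genes named, the block ended the calls of Dusp1 (adjusted p = 0.0568) and Areg (0.0698) between the tumour groups and of Dusp2 (0.0527) and Spred2 (0.0667) in Hmgb1-deleted tumours against normal livers. Etv4 could not be fitted against normal livers for Hmgb1-deleted tumours with a minimum of 1 CPM. The few reads of Etv4 and Dusp5 in normal livers limit the precision of their fold changes there.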
